A study of Mus musculus with 6 samples.

Results

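The mouse genome holds 9 genes for membrane-bound adenylyl cyclases, Adcy1 to Adcy9, and their expression is described here in sorted cells of dorsal root ganglia (DRG), which house the cell bodies of the sensory neurons of trunk and limbs. The 9 genes were taken by gene symbol from a table of 23029 genes, with no condition on their level, and 9 passed the filter on low values (0.1 RPKM in at least 2 libraries), as did 15544 genes in all. Adcy4 passed it only through its DN libraries. The genes were selected on their symbol alone, but the family was proposed with its RPKM differences between these subsets known. The p-values given for members therefore describe the fit and are not independent evidence.

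Adenylyl cyclases make the second messenger cAMP from ATP. All 9 are activated by the stimulatory G protein alpha subunit, and they differ in what else they respond to: Adcy1, Adcy3 and Adcy8 are stimulated by calcium through calmodulin (Adcy3 only under some conditions), Adcy5 and Adcy6 are inhibited by calcium and by inhibitory G proteins, Adcy2, Adcy4 and Adcy7 are enhanced by G protein beta-gamma subunits, and Adcy9 is only weakly sensitive to the activator forskolin. In sensory neurons, cAMP acts largely through protein kinase A and the Epac exchange factors to sensitise nociceptors, and opioid and GABA-B receptors lower it through inhibitory G proteins. Which isoforms a neuron expresses is thought to shape how its cAMP responds to calcium entry and to G protein signals.

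RNA came from mice of genotype GINIP+/mcherry, which all 3 groups share, and whose reporter marks cells with GINIP, which interacts with inhibitory G protein alpha subunits. DP cells (IB4+GINIP+) bind isolectin B4 and carry the reporter, and correspond to Mrgprd+ neurons, whose free endings lie in the skin. C-LTMR cells (IB4-GINIP+), the unmyelinated low-threshold mechanoreceptors, carry the reporter only. DN cells (IB4-GINIP-) are what lay outside both gates. No treatment other than the sort is given, and the sources used here do not state age, sex or the number of animals behind a library. Each subset has 2 libraries, so n = 2 for each mean ± SD below, and since nothing says that the libraries come from separate animals, p-values measure the spread between these libraries, which may be technical.

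The sort labels could be checked against marker genes. Mrgprd was at 248.5 ± 40.6 RPKM in DP, 1.67 ± 0.49 in C-LTMRs and 0.649 ± 0.43 in DN cells, where RPKM is the read count scaled by gene length and by the reads of the library. Th, a marker of C-LTMRs, was at 1027 ± 15.1 in C-LTMRs, 55.3 ± 9.14 in DP cells and 22.95 ± 12.4 in DN cells. The DN libraries, labelled as remaining sensory neurons, also held markers of other cells. The summed RPKM of 12 satellite glia and Schwann cell markers was 8950 and 18700 in DN cells, against 1310 to 1810 in DP cells and 2430 to 3330 in C-LTMRs, and that of 12 endothelial, pericyte and fibroblast markers was 520 and 797 in DN cells, against 24.0 to 24.8 and 6.26 to 9.03. The 10 immune markers, mostly genes of myeloid cells, summed to 231 to 259 in DP cells, 5.38 to 9.83 in C-LTMRs and 61.2 to 114 in DN cells. In such bulk RNA, fewer cells of a type and less RNA per cell cannot be told apart.

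Each subset had a different set of leading isoforms. In DP, the calcium-inhibited Adcy5 was by far the highest at 9.26 ± 1.21 RPKM. In C-LTMR, Adcy1, Adcy9 and Adcy5 stood close together at 5.38 ± 0.0393, 5.07 ± 0.556 and 4.34 ± 0.211. In DN, Adcy2 led at 14.99 ± 0.991, followed by Adcy5 at 8.75 ± 1.70 and Adcy7 at 6.69 ± 1.39. RPKM is per length, so these levels can be set side by side between genes as far as the gene lengths behind them hold. The sources used here do not give those lengths. For Adcy5, the longest RefSeq transcript gave 250 reads per RPKM, where the normalized counts gave 182. Orders of genes and shares of the family rest on the same lengths.

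The summed level of the family also differed, at 14.8 and 17.4 RPKM in the DP libraries, 20.56 and 21.99 in C-LTMRs and 44.0 and 38.8 in DN cells. As a share of that sum, which does not depend on how libraries are scaled, the calcium-inhibited isoforms made up 70.9% ± 0.249 in DP cells, 33.9% ± 1.85 in C-LTMRs and 29.3% ± 0.167 in DN cells. The calcium-stimulated isoforms made up 5.03% ± 0.0421 in DP cells and 6.61% ± 1.71 in DN cells, but 35.3% ± 0.599 in C-LTMRs. Adcy2, Adcy4 and Adcy7 together held 58.6% ± 1.30 of the sum in DN, 8.01% ± 0.129 in DP cells and 6.96% ± 0.964 in C-LTMRs. Adcy9 held 16.1% ± 0.421 in DP cells, 23.8% ± 1.49 in C-LTMRs and 5.52% ± 0.575 in DN cells. These shares describe the libraries and were not tested.

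**Figure D1:**
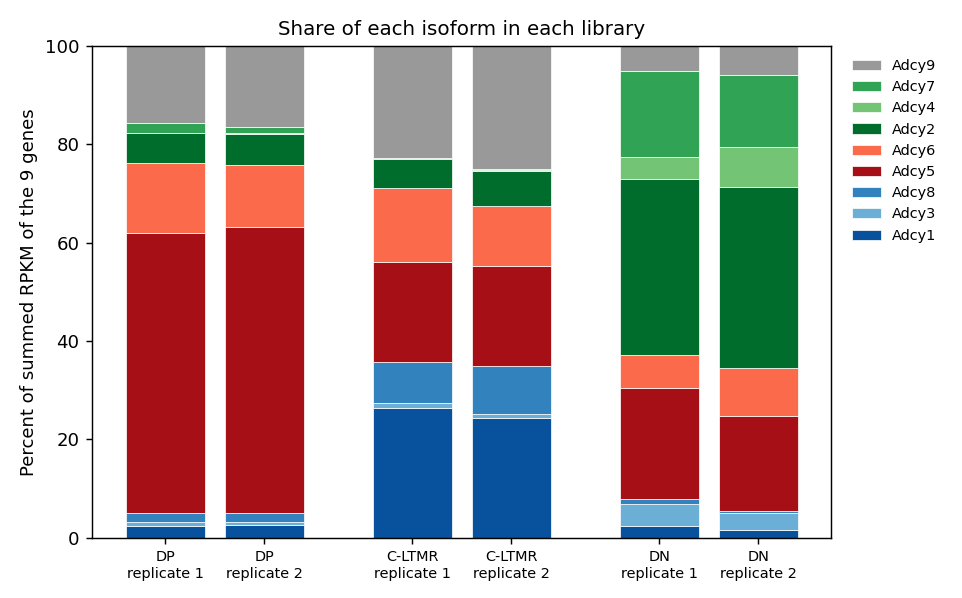
Percent of the summed RPKM of the 9 adenylyl cyclase genes (vertical axis) taken by each gene in each of the 6 libraries (bars), with calcium-stimulated genes in blue, calcium-inhibited genes in red, Adcy2, Adcy4 and Adcy7 in green and Adcy9 in grey. Red makes up 70.9% of DP on average, blue 35.3% of C-LTMR, and green 58.6% of DN.

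Neighbours in the order of levels were not always separate. In DP the order ran Adcy5, Adcy9, Adcy6, Adcy2, Adcy1, Adcy8, Adcy7, Adcy3, Adcy4, and of its neighbours only the ranges of Adcy8 and Adcy7 overlapped. In C-LTMR it ran Adcy1, Adcy9, Adcy5, Adcy6, Adcy8, Adcy2, Adcy3, Adcy7, Adcy4, and only the ranges of Adcy1 and Adcy9 overlapped. In DN it ran Adcy2, Adcy5, Adcy7, Adcy6, Adcy4, Adcy9, Adcy3, Adcy1, Adcy8, with overlaps between Adcy5 and Adcy7, Adcy6 and Adcy4, and Adcy4 and Adcy9. At least 1 RPKM was reached by 3 and 4 members in the DP libraries, by 6 and 6 in C-LTMRs and by 8 and 7 in DN cells. The effective number of isoforms (the exponential of the Shannon entropy of the shares, which is 9 when all are equal) was 3.84 and 3.73 in DP cells, 5.68 and 5.77 in C-LTMRs, and 5.78 and 5.85 in DN cells.

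The promoters of the isoforms that lead in DP, C-LTMR and DN are shown because these are the genes that the isoform choice turns on, with that of Adcy4, which was nearly absent outside DN. Each is the 250 bases before a transcript start in RefSeq (build GRCm38.p6, 5′ to 3′ on the gene's strand), which need not be the gene start of the deposited table, and capitals mark GC boxes, GGGCGG on either strand.
Adcy5, chr16:35154614-35154863, plus strand: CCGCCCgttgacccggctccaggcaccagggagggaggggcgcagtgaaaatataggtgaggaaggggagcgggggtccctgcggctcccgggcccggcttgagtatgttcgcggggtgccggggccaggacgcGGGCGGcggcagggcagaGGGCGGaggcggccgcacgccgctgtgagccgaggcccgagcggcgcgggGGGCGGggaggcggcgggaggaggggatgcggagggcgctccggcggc
Adcy1, chr11:7063183-7063432, plus strand: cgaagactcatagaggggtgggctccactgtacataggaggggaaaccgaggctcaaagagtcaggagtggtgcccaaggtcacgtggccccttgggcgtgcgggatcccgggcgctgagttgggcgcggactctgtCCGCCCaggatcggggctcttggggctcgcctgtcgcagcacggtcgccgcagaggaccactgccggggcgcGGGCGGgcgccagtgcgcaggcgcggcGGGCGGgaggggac
Adcy2, chr13:68999542-68999791, minus strand: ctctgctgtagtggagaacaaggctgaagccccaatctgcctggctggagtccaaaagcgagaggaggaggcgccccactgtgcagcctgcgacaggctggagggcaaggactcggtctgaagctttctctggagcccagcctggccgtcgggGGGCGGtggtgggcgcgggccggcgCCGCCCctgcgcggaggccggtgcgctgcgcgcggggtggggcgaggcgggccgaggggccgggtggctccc
Adcy4, chr14:55784073-55784322, minus strand: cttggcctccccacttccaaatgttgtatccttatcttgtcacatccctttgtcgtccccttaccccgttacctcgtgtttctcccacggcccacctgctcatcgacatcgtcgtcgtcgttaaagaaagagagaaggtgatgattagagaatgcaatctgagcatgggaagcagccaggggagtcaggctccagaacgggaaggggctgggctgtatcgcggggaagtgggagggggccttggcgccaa
Those of Adcy5, Adcy1 and Adcy2 held 4, 3 and 2 GC boxes and that of Adcy4 held 0, with 78.0%, 71.2%, 73.2% and 56.0% of bases G or C. A GC box occurs in 32.7% of all 32851 RefSeq promoter windows of this length. In all, 7 of the 9 members matched an entry by Entrez ID, with 10 windows between them. A GC box was in 6 of the 10 windows and in 6 of these 7 members, all but Adcy4. The full cAMP response element TGACGTCA was in 0 of the 10 windows (1.55% of all windows hold it on either strand), and TGACG, which the full element contains, was in 1 window each of Adcy7 and Adcy9 (17.8% of all windows). TATAAA, the TATA box motif, was in 0 of the 10 (12.4% of all windows). A match or its absence describes these letters only.

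All 6 libraries entered a single limma fit of log2(RPKM + 0.1). Calls required both an adjusted p under 0.05 (Benjamini-Hochberg, over all 15544 genes) and a log2 fold change of 1 or more in either direction, here termed the fold criterion. Log2 fold changes are of RPKM + 0.1, so those of low genes come out too small, while folds are ratios of mean RPKM. The 3 comparisons share libraries and are not independent of each other.

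Between DP and C-LTMR, 4 of the 9 members were called, against 15.2% of all genes tested. Adcy1 and Adcy8 were higher in C-LTMR, where 8.52% of all genes were called higher, and Adcy5 and Adcy7 in DP, where 6.65% were. The median absolute log2 fold change was 0.95 over the 9 members and 0.30 over all genes. The ranges of the subsets did not overlap for any of the 9 members, and for 68.8% of all genes. For Adcy4 those ranges rest on a rough 1.42 and 4.22 reads in DP and 0 and 1.14 in C-LTMR, too few to tell apart.

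Between DP and DN, 4 members were called, Adcy2, Adcy3, Adcy4 and Adcy7, and all 4 were higher in DN. Adcy4 had passed the filter only through DN and so had to differ, and without it 3 of 8 members were called. The background is 33.3% of all genes called, 25.5% higher in DN and 7.75% higher in DP. The median absolute log2 fold change was 0.91 over the members and 0.58 over all genes. Ranges did not overlap for 7 members, and for 81.9% of all genes.

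Between C-LTMR and DN, 7 members were called (6 of 8 without Adcy4), against 32.1% of all genes. Adcy1, Adcy8 and Adcy9 were higher in C-LTMR, where 8.58% of all genes were called higher. Adcy2, Adcy3, Adcy4 and Adcy7 were higher in DN, where 23.5% of all genes were. The median absolute log2 fold change was 2.57 over the members and 0.54 over all genes, and ranges did not overlap for 8 members (79.7% of all genes).

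**Figure D2:**
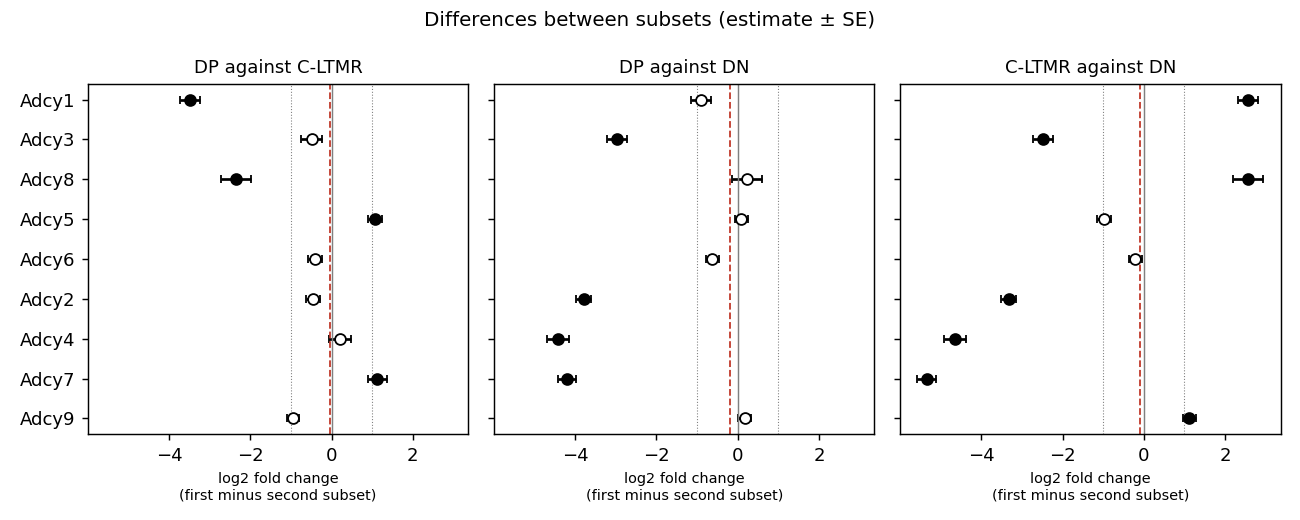
Log2 fold change of each member (horizontal axis, first subset minus second, ± SE) in the 3 comparisons, with filled points for called genes, dotted lines at -1 and 1 and a dashed line at the median of all genes. Adcy1 and Adcy8 lie far to the C-LTMR side in both comparisons that hold C-LTMR, and Adcy2, Adcy3, Adcy4 and Adcy7 far to the DN side in both that hold DN.

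Among the calcium-stimulated isoforms, Adcy1 (Entrez 432530, chromosome 11, 7063489 to 7178505), a neuronal cyclase that responds to calcium entry, was highest in C-LTMR. Coordinates here and below are those of the whole gene, exons and introns, as the deposited table gives them for the mouse build GRCm38 (mm10). Its RPKM was 5.40 and 5.35 in the C-LTMR libraries, 0.343 and 0.443 in DP cells, and 1.05 and 0.639 in DN cells. Both C-LTMR libraries were above the other 4, and the DN libraries were above those of DP. Adcy1 was 13.7-fold higher in C-LTMR than in DP (log2 fold change of DP over C-LTMR -3.48, SE 0.247, limma adjusted p = 0.000172). It was 6.38-fold higher in C-LTMR than in DN (log2 fold change 2.57, SE 0.247, limma adjusted p = 0.000203). DP over DN was at -0.91 (limma adjusted p = 0.0177), short of the fold criterion. That value passed without DP replicate 2 (-1.05), without DN replicate 2 (-1.22) and in the TMM-normalized table (-1.08), and it was 0.10 after quantile normalization.

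Adcy8 (Entrez 11514, chromosome 15, 64699035 to 64922296), which calcium activates strongly, had the same leading subset at a lower level. It was at 1.71 and 2.12 RPKM in C-LTMR, 0.266 and 0.321 in DP cells, and 0.396 and 0.129 in DN cells. The C-LTMR libraries lay above all others, while the DP range fell inside that of DN. Adcy8 was 6.53-fold higher in C-LTMR than in DP (log2 fold change of DP over C-LTMR -2.35, SE 0.368, limma adjusted p = 0.00409), a call lost when no filter on low values was used (limma adjusted p = 0.0538). It was 7.31-fold higher in C-LTMR than in DN (log2 fold change 2.57, SE 0.368, limma adjusted p = 0.00121). DP over DN was at 0.22 (limma adjusted p = 0.632), without a stable sign or size. It was -0.34 without DN replicate 2, 0.78 without DN replicate 1 (limma adjusted p = 0.0444), and 1.14 after quantile normalization (limma adjusted p = 0.0277), where it was a call. The RefSeq gene Gm30752, a long non-coding RNA, overlaps Adcy8, and whether counting used strand is not given in the sources used here.

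Adcy3 (Entrez 104111, chromosome 12, 4133397 to 4211605), best known from olfactory neurons and primary cilia, did not share this pattern. It was at 1.997 and 1.33 RPKM in DN, 0.139 and 0.105 in DP cells, and 0.229 and 0.192 in C-LTMRs. Both DN libraries were above the other 4. Adcy3 was 13.7-fold higher in DN than in DP (log2 fold change of DP over DN -2.97, SE 0.252, limma adjusted p = 0.00012) and 7.90-fold higher than in C-LTMR (log2 fold change of C-LTMR over DN -2.48, limma adjusted p = 0.000256). DP over C-LTMR was at -0.49 (limma adjusted p = 0.203). The gene overlaps the protein-coding gene Cenpo in RefSeq. Among members described below, Adcy5 overlaps the long non-coding RNA Gm46550 and the pseudogene Gm25179. Adcy2 overlaps the pseudogene Gm7979, and Adcy9 the pseudogene Gm6142.

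Of the calcium-inhibited isoforms, Adcy5 (Entrez 224129, chromosome 16, 35155636 to 35304549), a main cyclase of striatal neurons and the heart, was among the 3 highest members in every subset. It was at 8.40 and 10.1 RPKM in DP, 4.19 and 4.49 in C-LTMRs, and 9.96 and 7.55 in DN cells. The C-LTMR libraries were the lowest, and the ranges of DP and DN overlapped. Adcy5 was 2.13-fold higher in DP than in C-LTMR (log2 fold change 1.07, SE 0.166, limma adjusted p = 0.00396). DP over DN was at 0.09 (limma adjusted p = 0.676), a difference whose sign turned when DP replicate 2 or DN replicate 2 was left out. Between DP and C-LTMR, the fold fell short of the criterion without DP replicate 2 (log2 fold change 0.94) and with a pseudocount of 1 (0.94). C-LTMR over DN was at -0.98 (SE 0.166, limma adjusted p = 0.0025), just short of the fold criterion, and it passed without C-LTMR replicate 2 (-1.03) or DN replicate 2 (-1.18) and in the TMM-normalized table (-1.06). Adcy5 thus sat at the edge of the fold criterion in both comparisons with C-LTMR.

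Adcy6 (Entrez 11512, chromosome 15, 98589986 to 98607633), the close relative of Adcy5 found in many tissues, was the member that was called in 0 of the 3 comparisons. It was at 2.09 and 2.17 RPKM in DP, 3.06 and 2.68 in C-LTMRs, and 2.96 and 3.76 in DN cells. The C-LTMR and DN ranges overlapped, and both lay above DP. Its log2 fold changes were -0.41 for DP over C-LTMR (limma adjusted p = 0.117), -0.62 for DP over DN (0.0164) and -0.21 for C-LTMR over DN (0.308), each with an SE of 0.167. With libraries scaled to pan-sensory-neuron genes, DP over DN reached -1.0 and passed.

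The 3 isoforms that beta-gamma subunits enhance were all far higher in DN than in either reporter-positive subset. Adcy2 and Adcy7 kept those calls under each alternative, but the TMM-normalized table lists both through DN alone, so their calls there add nothing. Adcy4 passed the filter only through DN, so its calls and their stability add nothing to its levels. Adcy2 (Entrez 210044, chromosome 13, 68620043 to 68999541), a cyclase of the brain, was at 15.7 and 14.3 RPKM in DN, 0.894 and 1.10 in DP cells, and 1.24 and 1.59 in C-LTMRs. The DN libraries were the highest of any member in any subset. Adcy2 was 15-fold higher in DN than in DP (log2 fold change of DP over DN -3.79, SE 0.178, limma adjusted p = 1.55e-05) and 10.6-fold higher than in C-LTMR (log2 fold change of C-LTMR over DN -3.33, limma adjusted p = 2.08e-05). DP over C-LTMR was at -0.46 (limma adjusted p = 0.104).

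Adcy7 (Entrez 11513, chromosome 8, 88272403 to 88329962), known from blood and immune cells as well as brain, was the only member called in all 3 comparisons. It was at 7.67 and 5.70 RPKM in DN, 0.292 and 0.238 in DP cells, and 0.0509 and 0.0828 in C-LTMRs. The 3 ranges were separate. Adcy7 was 25.2-fold higher in DN than in DP (log2 fold change of DP over DN -4.20, SE 0.231, limma adjusted p = 2.43e-05). Against C-LTMR the fold was 100 (log2 fold change of C-LTMR over DN -5.34, limma adjusted p = 1.08e-05). DP was 3.97-fold above C-LTMR (log2 fold change 1.13, SE 0.231, limma adjusted p = 0.0117), on a rough 50.8 to 62.3 reads in DP libraries and 10.8 to 17.6 in C-LTMR libraries. That call was lost without DP replicate 1 (limma adjusted p = 0.0872), without C-LTMR replicate 1 (0.0666), with no filter (0.0623) and with a pseudocount of 1 (log2 fold change 0.25). Of the 10 immune markers, 7 were called higher in DP than in C-LTMR and 0 lower, and 0 were listed at 0 in both libraries of a subset, although 6 had a mean below 0.1 RPKM in C-LTMR. Of the 12 endothelial, pericyte and fibroblast markers, 6 were called higher in DP and 0 lower. The share of all genes called higher in DP was 6.65%, and that called higher in C-LTMR was 8.52%. Between DP and DN, 3 immune markers were called higher in DP, 3 were called higher in DN and 4 were not called. Of all genes, 7.75% were called higher in DP there and 25.5% higher in DN. Between C-LTMR and DN, 6 immune markers were called higher in DN and 0 higher in C-LTMR, where 23.5% and 8.58% of all genes were. Ptprc and Itgam passed the filter only through DP, so a call of either adds nothing to its level. Ptprc, the common leukocyte antigen, was at 0.223 ± 0.0698 in DP cells and 0.0151 ± 0.0141 in C-LTMRs, and Lyz2, a lysozyme of myeloid cells, at 32.0 ± 3.20 and 0.131 ± 0.143. The part of these cells in the Adcy7 difference was not tested. Adcy7 overlaps the protein-coding gene Brd7 in RefSeq.

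Adcy4 (Entrez 104110, chromosome 14, 55769092 to 55784019), known from blood vessels among other tissues, was close to absent from the reporter-positive subsets. It was at 2.004 and 3.13 RPKM in DN, 0.0113 and 0.0338 in DP cells, and 0 and 0.00912 in C-LTMRs. By the length of its transcript, the DP values stand for about 1.42 and 4.22 reads and those of C-LTMR for 0 and about 1.14. Since 3 reads correspond to 0.024 RPKM here, no fold is given. Adcy4 was called higher in DN than in both other subsets, but it passed the filter only through DN, so the levels are given as a description, with no p. Between DP and C-LTMR no difference was detectable at this depth.

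Markers of vessel cells, glia and peptidergic neurons moved with these DN differences. Of 12 endothelial, pericyte and fibroblast markers, 11 were called higher in DN than in DP and 12 higher than in C-LTMR. The endothelial gene Pecam1 was at 18.2 ± 4.75 RPKM in DN, 0.220 ± 0.0346 in DP cells and 0.193 ± 0.0741 in C-LTMRs. Of 12 glial markers, 11 were called higher in DN than in DP, and 11 than in C-LTMR, and of 6 markers of peptidergic neurons 6 and 6 were. Tac1, the substance P precursor gene, was at 2722 ± 101 in DN cells, 267 ± 10.98 in DP cells and 143 ± 4.62 in C-LTMRs. The 6 markers of myelinated neurons were mixed. Against DP, 2 were called higher in DN, 1 lower and 3 not, and the counts were the same against C-LTMR. Cdh5, Vwf, Flt1, Erbb3 and Trpm8 are in these counts but passed the filter only through DN, so their calls add nothing to their levels. The share of all genes called higher in DN was 25.5% against DP and 23.5% against C-LTMR. Of these lists 0 genes were listed at 0 in both libraries of a subset, and the part of such cells in the cyclase differences was not tested.

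The DN libraries also differed from each other. The summed glial markers were at 8950 RPKM in DN replicate 1 and 18700 in DN replicate 2, and the endothelial, pericyte and fibroblast markers at 520 and 797. The 17 pan-sensory-neuron genes went the other way, at 11800 and 8720. Adcy4 and Adcy6 were higher in DN replicate 2, the library with more glial and vessel marker RNA. Adcy1, Adcy2, Adcy3, Adcy5, Adcy7 and Adcy8 were higher in DN replicate 1, and Adcy9 was at 2.25 and 2.30. These are values of 2 libraries, with no test.

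Adcy9 (Entrez 11515, chromosome 16, 4287545 to 4419587), a widely expressed cyclase, was at 4.68 and 5.47 RPKM in C-LTMR, 2.34 and 2.85 in DP cells, and 2.25 and 2.30 in DN cells. The C-LTMR libraries were the highest. Adcy9 was 2.23-fold higher in C-LTMR than in DN (log2 fold change 1.12, SE 0.158, limma adjusted p = 0.00112), but not past the fold criterion with libraries scaled to pan-sensory-neuron genes (0.71) or with a pseudocount of 1 (0.89). DP over C-LTMR was at -0.95 (SE 0.158, limma adjusted p = 0.00531), and it passed the criterion without DP replicate 2 (-1.08) or without C-LTMR replicate 1 (-1.06). DP over DN was at 0.17 (limma adjusted p = 0.377). The soluble cyclase Adcy10, which bicarbonate activates and which is no member, was at 0.00251 and 0 RPKM in DP, listed at 0 in C-LTMRs, and at 0.00552 and 0.0294 in DN cells, where 3 reads correspond to about 0.0161.

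**Figure D3:**
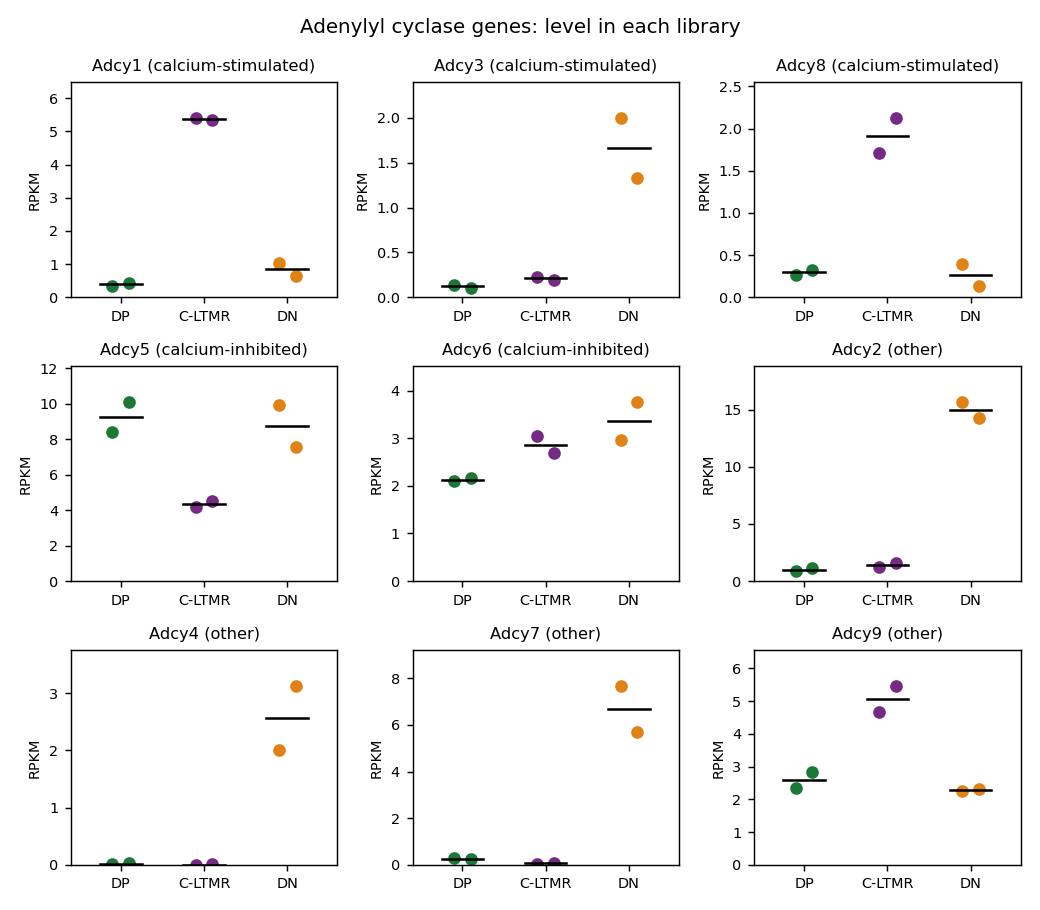
RPKM (vertical axes, each panel with its own scale from 0) of the 9 members in the 2 libraries of each subset (points, replicate 1 on the left) with their mean (line). Adcy1, Adcy8 and Adcy9 peak in C-LTMR, Adcy2, Adcy3, Adcy4 and Adcy7 in DN, and Adcy5 is lowest in C-LTMR.

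The second deposited table, of TMM-normalized counts, lists 4 of the members. Adcy1 was at 2325 ± 9.67 normalized counts in C-LTMR, 176 ± 30.1 in DP cells and 378 ± 115 in DN cells. Adcy2 was at 2317 ± 63.1 in DN cells, 153 ± 21.7 in DP cells and 210 ± 36.7 in C-LTMRs. Adcy5 was at 1709 ± 206 in DP cells, 776 ± 40.0 in C-LTMRs and 1622 ± 253 in DN cells. Adcy7 was at 1550 ± 263 in DN cells, 61.6 ± 9.64 in DP cells and 14.9 ± 5.03 in C-LTMRs. Since the table lists only genes that reach 892.3 in both libraries of a subset, Adcy1 is there through C-LTMR alone, Adcy2 and Adcy7 through DN alone, and Adcy5 through DP and DN. These values are given as a description.

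For each member called in at least 2 comparisons, the genes with the most similar pattern were taken as those at the smallest Euclidean distance of log2(RPKM + 0.1), centred on the gene's mean, over the 6 libraries. For Adcy1 these were Ak5, Necab2 and Osbpl6 (distances 0.364, 0.372 and 0.426). Ak5, an adenylate kinase gene, was at 64.0 ± 5.30 RPKM in C-LTMR, 4.73 ± 1.19 in DP cells and 10.2 ± 2.28 in DN cells. For Adcy8 they were Rimkla, D130009I18Rik and Cpb1 (0.481, 0.501 and 0.53). For Adcy2 they were Ntsr2, Itgbl1 and Sowaha (0.289, 0.366 and 0.368), and Ntsr2, a neurotensin receptor gene, was at 17.0 ± 1.04 in DN cells, 1.08 ± 0.00475 in DP cells and 1.46 ± 0.075 in C-LTMRs. For Adcy3 they were Parva, Rhbdl3 and Tmem229b (0.274, 0.296 and 0.319). For Adcy7 they were Kcnk2, Kcnmb2 and Cnih3 (0.333, 0.344 and 0.386), and Kcnk2, the gene of the potassium channel TREK-1, was at 13.4 ± 1.44 in DN cells, 0.73 ± 0.139 in DP cells and 0.216 ± 0.0144 in C-LTMRs. For Adcy4 they were 1700086L19Rik, Unc45b and Clec14a (0.326, 0.342 and 0.349).

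The rest of the cAMP pathway was described from lists of its components. Of 7 genes of G protein alpha subunits that act on adenylyl cyclase, 1 was called higher and 1 lower in DP than in C-LTMR, 2 higher and 0 lower in DP than in DN, and 1 higher and 0 lower in C-LTMR than in DN. Over all genes, the shares called in either direction were 15.2%, 33.3% and 32.1%, and the last 2 counts were below these. The calls against DN were all higher in DP or in C-LTMR. Only 7.75% of all genes were called higher in DP than in DN, and 8.58% higher in C-LTMR than in DN. Gnas, the main stimulatory subunit, was at 417 ± 9.27 RPKM in DP, 376 ± 0.469 in C-LTMRs and 528 ± 27.1 in DN cells, with 0 calls. Gnal, the second stimulatory subunit (Golf), was at 111 ± 20.3 in DP cells, 52.6 ± 3.53 in C-LTMRs and 41.7 ± 5.23 in DN cells. It was called in DP over C-LTMR (log2 fold change 1.07, limma adjusted p = 0.00262), where it dropped below the fold criterion without DP replicate 1 (0.88) or C-LTMR replicate 2 (1.0), and over DN (1.41, limma adjusted p = 0.00032).

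Among inhibitory subunits, Gnai1 was at 11.05 ± 0.727 in DP cells, 31.5 ± 0.924 in C-LTMRs and 21.95 ± 1.24 in DN cells, and was called lower in DP than in C-LTMR (log2 fold change -1.51, limma adjusted p = 0.000118). Gnai1 in DP over DN was at -0.98 (limma adjusted p = 0.000211), and was called without DP replicate 2 (-1.05), without DN replicate 2 (-1.04) and with pan-sensory-neuron scaling (-1.37). Gnao1 was at 225 ± 12.1 in DP cells, 122 ± 12.2 in C-LTMRs and 54.9 ± 3.66 in DN cells, and was called in DP over DN (2.03, limma adjusted p = 1.99e-05) and in C-LTMR over DN (1.15, limma adjusted p = 0.000166), the latter not with scaling to pan-sensory-neuron genes (0.72). Gnai2, Gnai3 and Gnaz were called in 0 comparisons, with absolute log2 fold changes from 0.03 to 0.36. Gnal and Gnao1 thus stood highest in DP and Gnai1 in C-LTMR.

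The 3 calmodulin genes, whose shared product carries the calcium signal to Adcy1 and Adcy8, were at a summed 3260 and 3410 RPKM in the DP libraries, 3110 and 3120 in C-LTMRs and 2540 to 2770 in DN cells, and 0 were called in any comparison. At an unadjusted p under 0.05 in limma, the only tool run, 2, 2 and 3 of them differed in DP against C-LTMR, DP against DN and C-LTMR against DN. Calm3, at 193 ± 4.95 in DP cells and 384 ± 32.9 in C-LTMRs, was at a log2 fold change of -0.99 (limma adjusted p = 0.00516). It was called after quantile normalization, without DP replicate 2, and with C-LTMR replicate 1 left out, which made the count 1 in place of 0. Of 8 anchoring proteins of protein kinase A, 0 were called, with 4, 1 and 6 at an unadjusted p under 0.05 in limma in the same order of comparisons. The count was 1 after quantile normalization in both comparisons with DN, with pan-sensory-neuron scaling in DP against DN, and without DN replicate 1 in C-LTMR against DN.

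Phosphodiesterases, which break cAMP down, differed in both directions. Of 15 genes tested, 4 were called higher and 4 lower in DP than in C-LTMR, 3 higher and 7 lower in DP than in DN, and 3 higher and 8 lower in C-LTMR than in DN. The shares of all genes called were 15.2%, 33.3% and 32.1%. Median log2 fold changes of the phosphodiesterases were 0.19, -0.18 and -1.73, against -0.05, -0.20 and -0.10 over all genes. With a pseudocount of 1, the counts called in DP against C-LTMR and DP against DN were 4 and 5. The Pde1 genes encode the phosphodiesterases that calcium and calmodulin stimulate. Pde1c was at 13.7 ± 1.24 RPKM in C-LTMR, 1.29 ± 0.263 in DP cells and 1.35 ± 0.539 in DN cells (DP over C-LTMR -3.32, limma adjusted p = 0.000296; C-LTMR over DN 3.29, limma adjusted p = 0.000112). Pde1b was at 8.50 ± 0.977 in C-LTMRs, 1.41 ± 0.0971 in DP cells and 0.357 ± 0.0227 in DN cells (DP over C-LTMR -2.50, limma adjusted p = 0.000133; C-LTMR over DN 4.23, limma adjusted p = 8.25e-06). C-LTMR, the subset with the highest Adcy1 and Adcy8, thus also had the highest Pde1b and Pde1c. Pde1a, in contrast, was at 8.07 ± 1.12 in DN cells, 0.686 ± 0.092 in DP cells and 0.226 ± 0.0103 in C-LTMRs, and was called in both comparisons with DN (-3.38 for DP and -4.64 for C-LTMR).

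Of the other phosphodiesterases, Pde10a was at 4.91 ± 0.186 in DP cells, 0.213 ± 0.0504 in C-LTMRs and 1.48 ± 0.00523 in DN cells (DP over C-LTMR 4.01, limma adjusted p = 5e-05). Pde8a, a high-affinity enzyme, was at 2.02 ± 0.359 in DP cells and 0.215 ± 0.0582 in C-LTMRs (log2 fold change 2.75). Pde4c, Pde8b and Pde4b were called higher in DN than in DP, with log2 fold changes of -3.29, -3.25 and -3.04 for DP over DN. The DN libraries of Pde4b were apart, at 15.1 and 33.8 RPKM.

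**Figure D4:**
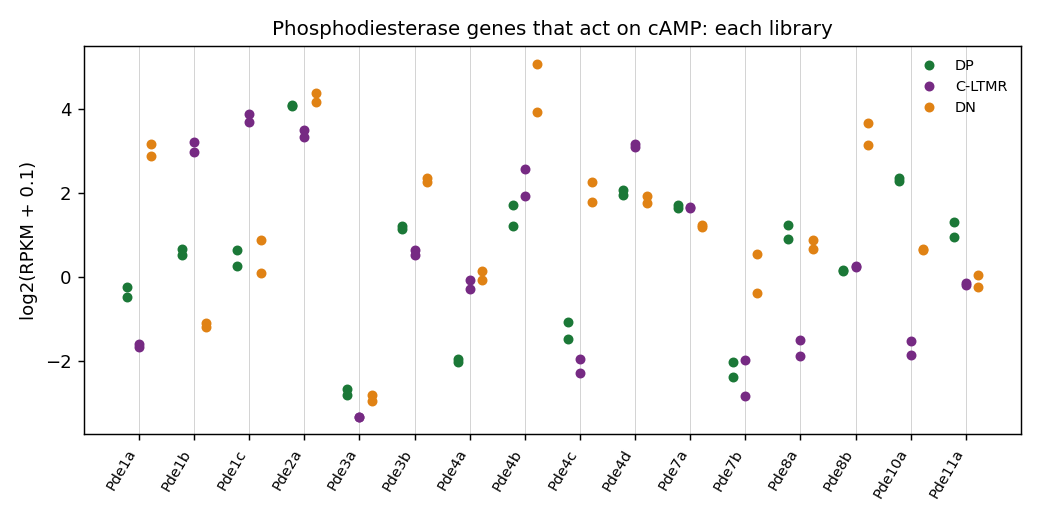
Log2(RPKM + 0.1) (vertical axis) of the 16 genes of phosphodiesterases that act on cAMP in the 2 libraries of each subset (points). Pde1b and Pde1c are highest in C-LTMR, Pde1a, Pde4b, Pde4c and Pde8b in DN, and Pde10a in DP.

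Of the targets of cAMP, 9 genes of protein kinase A subunits and its inhibitors gave 3 calls higher and 1 lower in DP than in C-LTMR, 4 higher and 0 lower in DP than in DN, and 1 higher and 0 lower in C-LTMR than in DN. Against 15.2%, 33.3% and 32.1% of all genes called in either direction, the second count was near that share and the third below it. All calls against DN were higher in DP or in C-LTMR, where 7.75% and 8.58% of all genes were called higher. The regulatory subunit gene Prkar2b was at 207 ± 33.1 RPKM in DP, 46.6 ± 13.25 in C-LTMRs and 63.0 ± 1.18 in DN cells (DP over C-LTMR 2.17, limma adjusted p = 0.000426; DP over DN 1.71, limma adjusted p = 0.000478). The catalytic subunit gene Prkacb was at 55.6 ± 0.2 in DP cells, 59.3 ± 2.11 in C-LTMRs and 18.7 ± 0.166 in DN cells, and was called in DP over DN (1.57) and in C-LTMR over DN (1.66). The inhibitor genes Pkia and Pkig were called in DP over C-LTMR (log2 fold changes of 1.37 and 1.30). Prkar1a (DP over C-LTMR) and Pkig (DP over DN), at -1.0 and 1.0, stood at the fold criterion itself and lost their calls in several alternatives, as did Pkib (DP over DN 1.23). With a pseudocount of 1, with pan-sensory-neuron scaling and without DP replicate 1, the 4 calls between DP and DN were 2. The 1 call between C-LTMR and DN was 2 without DN replicate 1, with quantile normalization and with pan-sensory-neuron scaling. Median log2 fold changes over the 9 genes were 0.15, 0.73 and 0.33 in DP against C-LTMR, DP against DN and C-LTMR against DN, where those of all genes were -0.05, -0.20 and -0.10.

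The Epac genes, whose products cAMP activates directly, split. Rapgef3 was at 2.67 ± 0.00619 RPKM in DN, 0.0416 ± 0.0296 in DP cells and 0.0114 ± 0.00569 in C-LTMRs. It passed the filter only through DN, so its calls in DN over DP and over C-LTMR add nothing to these levels. Rapgef4 was at 4.27 ± 0.309 in DP cells, 6.87 ± 0.366 in C-LTMRs and 5.08 ± 0.931 in DN cells, with 0 calls.

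Receptors that couple to the stimulatory G protein feed these cyclases. Of 16 tested, 2 were called higher and 4 lower in DP than in C-LTMR, 2 higher and 8 lower in DP than in DN, and 2 higher and 7 lower in C-LTMR than in DN, with median log2 fold changes of -0.28, -1.0 and -0.58. Over all genes, 15.2%, 33.3% and 32.1% were called and the medians were -0.05, -0.20 and -0.10. Adcyap1r1 and Vipr2 are among the genes tested but passed the filter only through DN, so they had to come out higher there. Of all genes, 25.5% were called higher in DN than in DP and 23.5% higher than in C-LTMR. The serotonin receptor gene Htr4 was at 4.20 ± 0.242 RPKM in DP and 0.736 ± 0.0475 in C-LTMRs (log2 fold change 2.36, limma adjusted p = 0.000397), and at 0 and 0.0333 in DN cells. The beta-1 adrenergic receptor gene Adrb1 was at 6.04 ± 0.13 in C-LTMRs, 1.19 ± 0.0785 in DP cells and 0.37 ± 0.178 in DN cells (DP over C-LTMR -2.26, limma adjusted p = 0.00126; C-LTMR over DN 3.76, limma adjusted p = 5.92e-05). The adenosine receptor gene Adora2a was at 0.634 ± 0.0351 in DP cells, 2.87 ± 0.0727 in C-LTMRs and 2.02 ± 0.468 in DN cells (DP over C-LTMR -2.02, limma adjusted p = 0.000536). The prostacyclin receptor gene Ptgir was at 19.9 ± 3.88 in DN cells, 1.31 ± 0.0242 in DP cells and 4.91 ± 0.527 in C-LTMRs (DP over DN -3.81, limma adjusted p = 1.2e-05). Calcrl, a receptor subunit for calcitonin gene-related peptide and adrenomedullin, was at 3.58 ± 1.63 in DN cells, 0.128 ± 0.0174 in DP cells and 0.108 ± 0.00456 in C-LTMRs, and its DN libraries were at 2.43 and 4.73. Crhr2, a receptor gene of the corticotropin-releasing hormone family, was at 2.71 ± 0.243 in DN cells, 0.165 ± 0.0941 in DP cells and 0.226 ± 0.0228 in C-LTMRs. As for the cyclases that were high in DN, the marker lists of glia and vessels moved with these DN differences and their part was not tested.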

How the data were processed

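Cells of dorsal root ganglia were sorted into DP, C-LTMR and DN, and RNA of 2 libraries a subset was sequenced. The authors deposited RPKM values of 23029 genes and, as a normalized signal, TMM-normalized counts of 6620 genes, each of which reaches 892.3 in both libraries of a subset. The submitters' processing notes name CASAVA 1.8.2, edgeR 2.6.2 and a mouse build. Whether strand was used is not given in the sources used here. Raw counts were not analysed here, so no count model was run; replicate libraries correlated at 0.9876 to 0.9945 across genes. By gene length, the TMM-normalized counts and the RPKM values together match a common library size of about 35700000 reads, not the depth of each library. The rough reads quoted rest on this size and on the longest RefSeq transcript of a gene, so their error is not of counting alone. For Adcy5 that length gave 250 reads per RPKM, where the normalized counts gave 182.

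Genes at 0.1 RPKM or more in at least 2 libraries were kept (15544). All 6 libraries entered limma 3.58.1 (R 4.3.3; trend, log2(RPKM + 0.1)), with Benjamini-Hochberg adjustment over all genes and calls at an adjusted p under 0.05 and a log2 fold change of 1 or more in either direction. The procedure was tested on simulated data. Tables and figures used Python 3.11.15, pandas 2.3.3, numpy 2.4.6 and matplotlib 3.10.9. Symbols matched RefSeq by Entrez ID for 22954 genes (99.7%).

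Named were all 9 members, Adcy10, the G protein alpha subunits, up to 4 called genes per pathway list and comparison with the largest absolute log2 fold change, and the 3 genes nearest to each member called in at least 2 comparisons. Calm3, Gnas and Rapgef4 and marker genes are given as values chosen after they were seen. A receptor gene that this rule names is not reported here. The members and lists were chosen with earlier results of these data known.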

Additional observations from a re-analysis of the deposited data

How the results depend on the processing

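Each comparison was refitted under 17 alternatives. Of 27 member values (9 genes in 3 comparisons), 18 were on the same side of the call under all of them and 15 also kept their direction. Called values that kept both were Adcy1 between DP and C-LTMR, Adcy2, Adcy3, Adcy4 and Adcy7 between DP and DN, and Adcy1, Adcy2, Adcy3, Adcy4, Adcy7 and Adcy8 between C-LTMR and DN, as far as a table lists the gene. Adcy4 is in these counts but passed the filter only through DN, so its stability adds nothing. The TMM-normalized table lists Adcy1 through C-LTMR alone, and Adcy2 and Adcy7 through DN alone. Their calls for those subsets in that table add nothing either.

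With a pseudocount of 1 RPKM, calls fell from 2358 to 1192 for DP against C-LTMR, from 5172 to 3140 for DP against DN and from 4993 to 3012 for C-LTMR against DN. In the TMM-normalized table, which lists fewer genes, the counts were 843, 1645 and 1562. Of the members, 2 in place of 4 were called between DP and C-LTMR with a pseudocount of 1 or with no filter, and 4 in place of 7 between C-LTMR and DN in the TMM-normalized table, which lists 4 members.

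The differences that changed sign were short of a call as reported, and short of it under the alternatives that turned them. Between DP and DN, Adcy1 was at 0.10 after quantile normalization, and scaling to pan-sensory-neuron genes put Adcy5 at -0.30, Adcy8 at -0.04, Adcy9 at -0.20 and Gnaz at -0.02. With each library left out in turn, Adcy5 ranged from -0.11 (without DN replicate 2; -0.04 without DP replicate 2) to 0.28, Adcy8 from -0.34 (without DN replicate 2) to 0.78, and Gnai3 from -0.23 to 0.01 (without DN replicate 2). Between C-LTMR and DN, Adcy6 was at 0.23 after quantile normalization, and Gnaz and Gnal at -0.17 and -0.09 with pan-sensory-neuron scaling. Between DP and C-LTMR, Gnai3 ranged from -0.02 (without C-LTMR replicate 2; -0.0025 if DP replicate 1 was dropped) to 0.08. The cause was not tested.

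Scaling moved the balance of all genes. Of the genes called between DP and DN, 23.3% were higher in DP as reported, 47.7% after quantile normalization, 37.4% in the TMM-normalized table and 13.8% with pan-sensory-neuron scaling. Between C-LTMR and DN, 26.7% were higher in C-LTMR, 49.0% after quantile normalization, 38.0% in the TMM-normalized table and 15.9% with pan-sensory-neuron scaling. The median log2 fold change of all genes between DP and DN was -0.20 as reported, 0.15 with quantile normalization and -0.57 with pan-sensory-neuron scaling, and between C-LTMR and DN it was -0.10, 0.17 and -0.50. The alternatives for the cAMP pathway lists were chosen after seeing the data, and 907 of 935 values for their named genes kept direction and call.

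Replicate numbers are shared by the subsets. Same-numbered libraries deviated together at r = 0.286 for DP and C-LTMR, 0.0888 for DP and DN and 0.23 for C-LTMR and DN, so pairing was not assumed. With the replicate block, 2442, 5208 and 5018 genes were called, and 4, 4 and 7 members.

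With 2 libraries a subset, leaving out 1 library moved Adcy9 between DP and C-LTMR across the fold criterion, and Adcy4 in DP and C-LTMR rested on a few reads.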
